A study of Mus musculus with 12 samples.

Results

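The 10 core clock genes Arntl (also called Bmal1), Clock, Npas2, Per1, Per2, Per3, Cry1, Cry2, Nr1d1 and Nr1d2 were read by symbol from a table of 22537 genes, and all 10 were present. The table holds liver RNA of 12 female C57BL/6 mice, 6 months old, that had been fed a high-fat diet for 13 weeks, with 1 library per mouse. There were 3 mice in each of the groups AHR KO, AHR Flox, ARNT KO and ARNT Flox. The KO labels stand for hepatic loss of the aryl hydrocarbon receptor (AHR) or of its DNA-binding partner ARNT, as the study names it, and the Flox groups are the matching lines with an intact, loxP-flanked Ahr or Arnt gene. The sources used here give neither the recombinase and its promoter, nor the part of each gene removed, nor the time of day at which livers were taken.

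The clock is a feedback loop of transcription that runs in nearly every cell, including hepatocytes. ARNTL pairs with CLOCK or its relative NPAS2, and the pair binds E-box sequences and drives the Per, Cry and Nr1d genes. PER and CRY proteins then inhibit that pair, while the REV-ERB receptors encoded by Nr1d1 and Nr1d2 repress Arntl, Npas2 and Cry1 through RORE sequences. In mouse liver the transcripts of Arntl and Npas2 peak at about the opposite time of day to Nr1d1, and the Per transcripts follow Nr1d1. ARNTL is of the same bHLH-PAS protein family as AHR and ARNT.

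Each library summed to between 23585909 and 33255004 reads. Levels are given as CPM, reads scaled to library size, and a gene with 0 reads could be at up to 3 reads, which is 0.0861 to 0.126 CPM. ARNT KO replicate 3 stood apart on the first principal component of log2 CPM, at 65.3 against -30.9 to 30.3 for the other libraries. Its summed cholangiocyte markers were at 308 CPM against 45.8 to 112 CPM elsewhere, and its markers of dividing cells were at 44.7 CPM against 3.48 to 14.3 CPM elsewhere. Hepatocyte markers other than Alb summed to 20979 to 28196 CPM over all 12 libraries. With Alb included the sum was 31797 to 35285 CPM in AHR KO, against 104557 to 113397 CPM in AHR Flox, and in ARNT KO replicate 3 it was 26801 CPM. Over the 12 libraries the macrophage markers summed to 342 to 723 CPM, sinusoidal endothelium to 169 to 253 CPM, stellate cells to 212 to 409 CPM, with the highest macrophage and stellate sums in ARNT KO replicate 3, lymphocytes to 4.65 to 9.42 CPM and erythroid cells to 13.4 to 29.6 CPM. The last sum came from 1 gene, since Hba-a1 and Hba-a2 had no reads. In bulk liver, fewer cells of a type and less RNA per cell cannot be told apart. Of the targeted genes, Arnt held 25.2, 23.9 and 19.0 CPM in ARNT KO, against 47.8, 52.5 and 50.3 CPM in ARNT Flox, and it fell by 1.15 ± 0.12 SE on the log2 scale (adjusted p = 0.00601). Ahr held 84.4, 94.8 and 80.3 CPM in AHR KO, against 53.9, 78.8 and 72.4 CPM in AHR Flox. Ahr was above all 3 AHR Flox livers in all 3 AHR KO livers, without passing (log2 change 0.34 ± 0.17 SE, adjusted p = 0.470); a transcript that lacks some exons is still counted to its gene, so this count leaves their label unchecked, and AHR KO stands here for that label.

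Sequences at the starts of these genes were searched for the letters of elements through which the loop is known to act. The RefSeq promoter table for GRCm38.p6, the mm10 build, held 13 windows for 9 of the 10 genes, each with 250 bases before and 50 bases after a transcript start. Searched on both strands were the E-box CACGTG, the E-prime-box CACGTT, the RORE core TAGGTCA, the D-box TTATGTAA or TTACGTAA and the cyclic AMP element TGACGTCA, of which no pair overlapped in these windows. Windows of Cry1 and Nr1d1 are shown because they were the inverse pair that passed by Pearson's r, though not under all alternatives. A window of Arntl with a match is shown because Arntl is the textbook target of REV-ERB. Capitals mark the matched letters, and the E-prime-box reads AACGTG where it lies on the other strand. The windows lie at chr10:85185005-85185304 on the minus strand for Cry1, chr11:98775328-98775627 on the minus strand for Nr1d1 and chr7:113207261-113207560 on the plus strand for Arntl.
Cry1: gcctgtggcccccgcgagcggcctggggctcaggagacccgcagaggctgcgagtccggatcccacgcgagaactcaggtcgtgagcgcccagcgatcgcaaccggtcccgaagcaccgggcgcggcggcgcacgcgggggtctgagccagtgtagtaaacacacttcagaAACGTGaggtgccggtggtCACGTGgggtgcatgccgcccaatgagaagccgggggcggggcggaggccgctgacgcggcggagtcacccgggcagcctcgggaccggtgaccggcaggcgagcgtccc
Nr1d1: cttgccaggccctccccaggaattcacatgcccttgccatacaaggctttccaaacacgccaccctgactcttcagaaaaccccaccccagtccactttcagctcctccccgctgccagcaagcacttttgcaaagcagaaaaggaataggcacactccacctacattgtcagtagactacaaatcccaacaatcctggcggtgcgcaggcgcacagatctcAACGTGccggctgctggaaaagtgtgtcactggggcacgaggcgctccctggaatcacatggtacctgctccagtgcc
Arntl: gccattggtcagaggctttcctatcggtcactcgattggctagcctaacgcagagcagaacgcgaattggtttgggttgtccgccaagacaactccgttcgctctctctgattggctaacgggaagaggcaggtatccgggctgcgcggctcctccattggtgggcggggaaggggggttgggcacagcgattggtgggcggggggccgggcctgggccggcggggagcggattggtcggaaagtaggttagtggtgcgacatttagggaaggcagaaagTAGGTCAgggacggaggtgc
The Cry1 window held an E-box 60 bases and an E-prime-box 79 bases before the start, and the Nr1d1 window held an E-prime-box 28 bases before it. The Arntl window shown held a RORE core 30 bases after the start. The other Arntl window, at chr7:113207215-113207514, held none of these elements. A window of Per1 held an E-box 166 bases before the start, that of Cry2 an E-prime-box at 166 bases, and that of Per3 a pair of D-boxes at 205 and 158 bases. Among all 32851 promoter windows, 7.15% held the E-box, 4.68% the E-prime-box, 2.61% the RORE core, 1.06% the D-box and 1.79% the cyclic AMP element. Of the clock windows, 2 of 13 held the E-box, 3 the E-prime-box, 1 the RORE core, 1 the D-box and 0 the cyclic AMP element. No window of Clock, Npas2 or Nr1d2 held any of these elements, and Per2 had no window. The matches describe the letters only.

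Per kilobase of exon, the Nr1d, Per and Cry genes were above the activators in these livers. Median levels were 32.0 CPM per kilobase for Nr1d2, 28.2 for Nr1d1, 22.2 for Per3, 15.8 for Per2, 15.5 for Per1 and 13.0 for Cry2. Cry1 was at a median of 4.76 CPM per kilobase, Clock at 2.08, Arntl at 0.368 and Npas2 at 0.0296. From Cry2 down to Npas2 each gene exceeded the next in all 12 libraries, with no overlap of their ranges. Neighbours above Cry2 overlapped in range: Nr1d2 exceeded Nr1d1 in 9 of 12 libraries, and Per2 exceeded Per1 in 4 of 12. Lengths were summed over GENCODE exons, and the authors' annotation may differ.

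**Figure D1:**
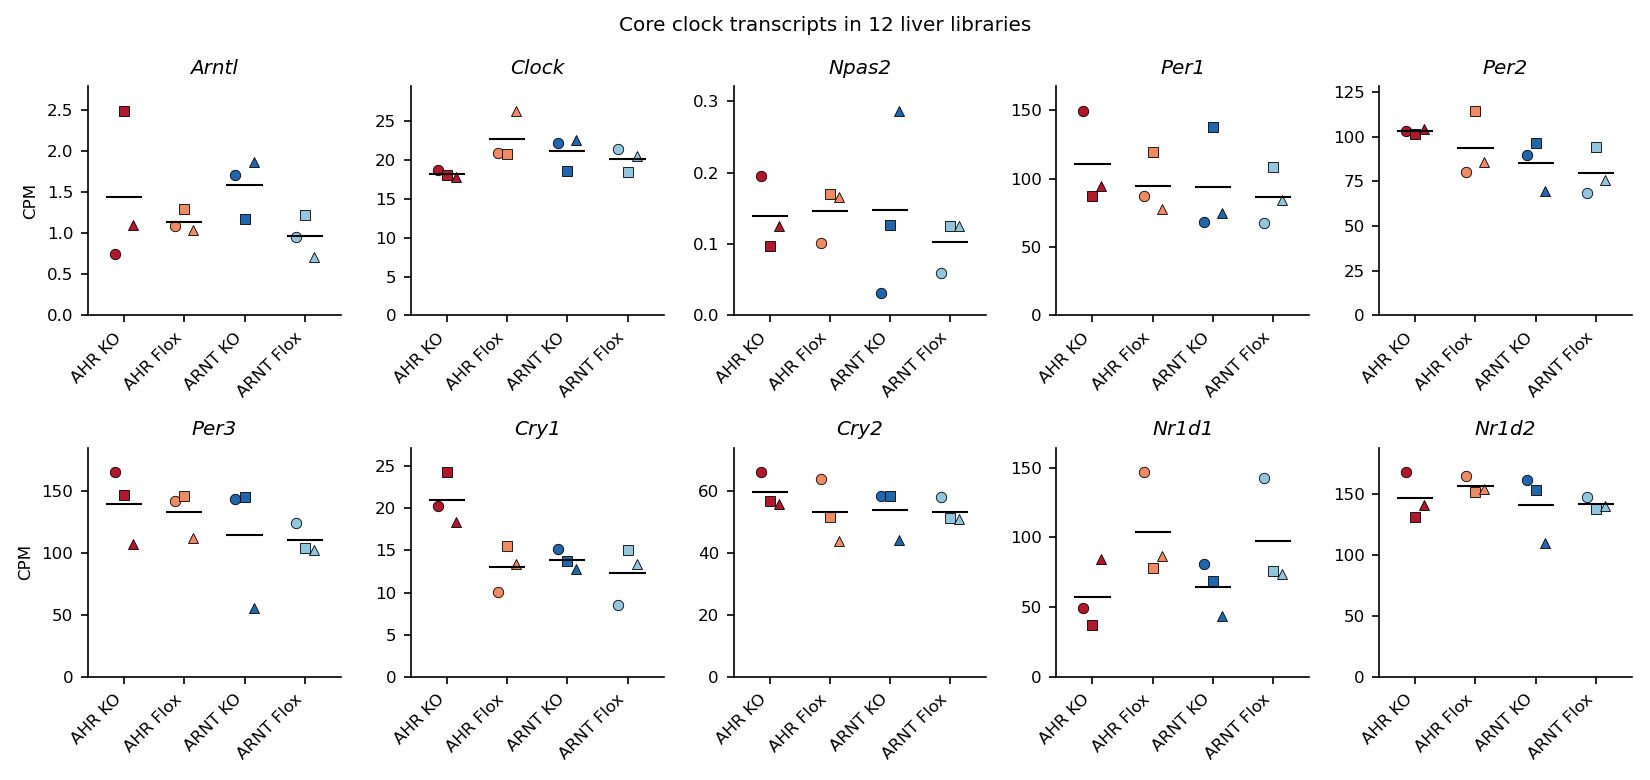
CPM of each clock gene (vertical axis, from 0) in AHR KO, AHR Flox, ARNT KO and ARNT Flox livers (horizontal axis); a circle, square or triangle is replicate 1, 2 or 3 and the line is the group mean. Cry1 in the 3 AHR KO livers (18.4 to 24.3 CPM) sits above all 3 AHR Flox livers (10.05 to 15.5 CPM), and Per3 in ARNT KO replicate 3 (55.6 CPM) is the lowest of 12.

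Among the activators, Clock was slightly lower in AHR KO than in AHR Flox, and neither Clock nor Arntl passed the test in either knockout. Arntl, the obligate DNA-binding partner of the loop (chromosome 7, 113207465 to 113314126), was rare. It held 0.748, 2.49 and 1.10 CPM in AHR KO, against 1.09, 1.30 and 1.04 CPM in AHR Flox. AHR KO replicate 2 was thus the highest of all libraries and replicate 1 was below every AHR Flox library. In ARNT KO Arntl held 1.71, 1.18 and 1.87 CPM, against 0.953, 1.22 and 0.712 CPM in ARNT Flox, so that 2 of 3 knockout livers were above all 3 controls. The log2 change was 0.34 ± 0.40 SE in AHR KO (edgeR, adjusted p = 0.804) and 0.71 ± 0.40 SE in ARNT KO (adjusted p = 0.884), where p is adjusted by Benjamini-Hochberg over all genes tested and called under 0.05. Without AHR KO replicate 2 the change in AHR KO was -0.32. These values rest on 17 to 77 reads per library; the exact 95% Poisson interval is 9.90 to 27.2 reads around 17 and 60.8 to 96.2 reads around 77, for counting error only.

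Clock, the partner with histone acetyltransferase activity (chromosome 5, 76209868 to 76304792), held 18.7, 18.1 and 17.8 CPM in AHR KO, against 20.9, 20.8 and 26.3 CPM in AHR Flox. All 3 AHR KO livers were below all 3 AHR Flox livers, but the difference did not pass (log2 change -0.32 ± 0.11 SE, 95% interval -0.56 to -0.071, unadjusted p = 0.016, adjusted p = 0.286). In ARNT KO Clock held 22.2, 18.5 and 22.6 CPM, against 21.4, 18.4 and 20.5 CPM in ARNT Flox, with overlapping groups (log2 change 0.071, 95% interval -0.17 to 0.32). Npas2 (chromosome 1, 39193731 to 39363236), which can stand in for CLOCK, had 6, 3 and 4 reads in AHR KO, 3, 5 and 4 in AHR Flox, 1, 4 and 10 in ARNT KO, and 2, 4 and 3 in ARNT Flox. It was below the filter on low counts and was not tested in the main fit. With no filter, its log2 change was -0.060 ± 0.67 SE in AHR KO (edgeR, unadjusted p = 0.930). In ARNT KO it was 0.55 ± 0.68 SE (edgeR, unadjusted p = 0.437). With errors of this size a small difference in it could not be detected. The other 9 genes were tested.

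The 3 Per genes encode the PERIOD proteins, which carry CRY into the nucleus and inhibit the activator pair, and none of them passed in either knockout. Per1 (chromosome 11, 69095217 to 69109960), an acutely inducible member, held 150, 87.3 and 94.7 CPM in AHR KO, against 87.6, 119 and 77.6 CPM in AHR Flox. In ARNT KO it held 68.2, 138 and 75.1 CPM, against 67.7, 108 and 84.6 CPM in ARNT Flox. In each knockout group a single liver held the high value and the rest lay among the controls (log2 change 0.22 ± 0.30 SE in AHR KO and 0.11 ± 0.30 SE in ARNT KO). Per2 (chromosome 1, 91415982 to 91459324), the member most needed for rhythm, held 103, 101 and 104 CPM in AHR KO, against 80.3, 114 and 86.0 CPM in AHR Flox. In ARNT KO it held 89.8, 96.4 and 69.8 CPM, against 68.6, 94.2 and 75.7 CPM in ARNT Flox. The groups overlapped in both comparisons (log2 change 0.14 ± 0.16 SE in AHR KO and 0.10 ± 0.16 SE in ARNT KO).

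Per3 (chromosome 4, 151003652 to 151044665), which is dispensable for rhythm in mice, held 165, 147 and 107 CPM in AHR KO, against 142, 146 and 112 CPM in AHR Flox. In ARNT KO it held 143, 146 and 55.6 CPM, against 124, 104 and 103 CPM in ARNT Flox. ARNT KO replicates 1 and 2 were thus above all ARNT Flox livers while replicate 3, the library with raised cholangiocyte and dividing-cell markers, was the lowest of 12; the part of those markers in it was not tested. The log2 change in ARNT KO was 0.059 ± 0.30 SE with that library (adjusted p = 0.9996) and 0.39 ± 0.17 SE without it (unadjusted p = 0.0377, adjusted p = 0.271).

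Of the cryptochrome genes, which encode the main inhibitors of the activator pair, Cry1 was higher in all 3 AHR KO livers without passing the test, and Cry2 overlapped between groups. Cry1 (chromosome 10, 85131700 to 85185064), which responds to REV-ERB as well as to E-boxes, held 20.3, 24.3 and 18.4 CPM in AHR KO, against 10.05, 15.5 and 13.4 CPM in AHR Flox. All 3 knockout livers were above all 3 controls and above every other library of the series, at 1.62-fold in the fit (log2 change 0.69 ± 0.21 SE, 95% interval 0.24 to 1.15). The unadjusted p was 0.00621 and the adjusted p was 0.198; the alternatives tried gave adjusted p between 0.0586 and 0.526. In ARNT KO Cry1 held 15.1, 13.8 and 12.8 CPM, against 8.51, 15.03 and 13.4 CPM in ARNT Flox, and the groups overlapped (log2 change 0.18, 95% interval -0.28 to 0.63). Cry2 (chromosome 2, 92403646 to 92434043), expressed more evenly over the day, held 66.3, 56.9 and 56.0 CPM in AHR KO, against 64.1, 51.6 and 43.9 CPM in AHR Flox. It held 58.5, 58.6 and 44.4 CPM in ARNT KO, against 58.1, 51.3 and 51.2 CPM in ARNT Flox (log2 change 0.17 ± 0.15 SE in AHR KO and 0.0085 ± 0.15 SE in ARNT KO).

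The REV-ERB genes encode heme-binding nuclear receptors that repress transcription, and Nr1d1 had lower means in both knockouts without passing. Nr1d1 (chromosome 11, 98767932 to 98775333) held 49.6, 37.5 and 84.6 CPM in AHR KO, against 147, 78.1 and 86.6 CPM in AHR Flox. AHR KO replicates 1 and 2 were below all AHR Flox livers and replicate 3 lay within them (log2 change -0.86 ± 0.37 SE, 95% interval -1.67 to -0.050, unadjusted p = 0.0394, adjusted p = 0.389). In ARNT KO it held 80.8, 68.5 and 43.5 CPM, against 142, 75.6 and 74.1 CPM in ARNT Flox (log2 change -0.60 ± 0.37 SE, adjusted p = 0.911). Without ARNT KO replicate 3 that change was -0.38 ± 0.38 SE (adjusted p = 0.671). A single control library was high in each Flox group, replicate 1 in both, at 142 CPM in ARNT Flox and 147 CPM in AHR Flox. The other Flox livers held 74.1 to 86.6 CPM, and the knockout groups held no value above 84.6 CPM. Leaving out 1 library at a time, the log2 change of Nr1d1 ran from -1.26 to -0.53 in AHR KO. In ARNT KO it ran from -0.80 to -0.22. Exons of Nr1d1 share 263 of 2721 bases with Thra on the other strand, so reads there cannot be told apart without the strand setting. Exons of Cry2 share 149 bases with D930015M05Rik and those of Arntl 33 bases with Gm45355, both on the other strand. Nr1d2 (chromosome 14, 18204054 to 18239127) was steadier, at 168, 131 and 141 CPM in AHR KO, against 165, 151 and 154 CPM in AHR Flox. It held 161, 153 and 109 CPM in ARNT KO, against 147, 137 and 140 CPM in ARNT Flox, and the lowest value was again ARNT KO replicate 3. Its log2 change was -0.10 ± 0.14 SE in AHR KO and -0.0042 ± 0.14 SE in ARNT KO.

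**Figure D2:**
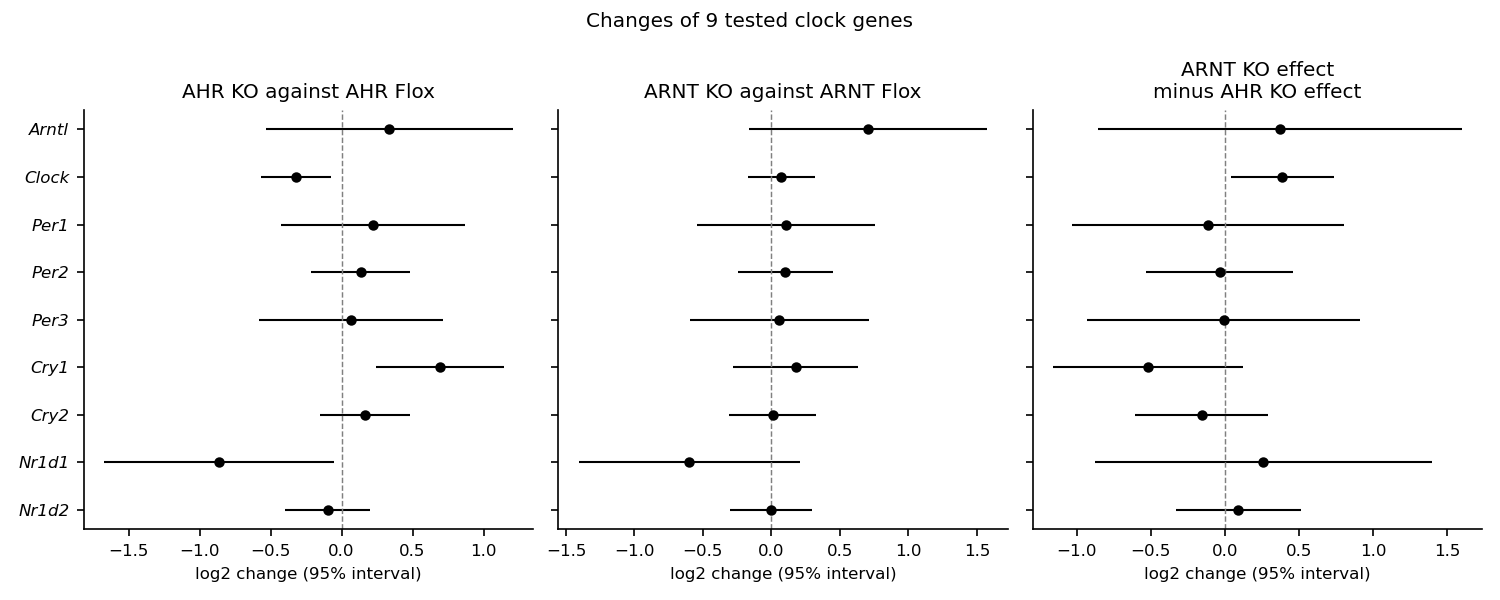
Log2 change with its 95% interval (horizontal axis) of the 9 tested clock genes (vertical axis) in AHR KO against AHR Flox, in ARNT KO against ARNT Flox, and for the ARNT KO effect minus the AHR KO effect. Intervals of Cry1, Clock and Nr1d1 exclude 0 in AHR KO before adjustment over all genes, and all 9 intervals include 0 in ARNT KO.

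Counted together, AHR KO against AHR Flox gave 0 of 9 tested clock genes called by edgeR at an adjusted p under 0.05, where 0.0788% of all 13968 genes were called. None was called higher (0.0501% of all genes) or lower (0.0286% of all genes). The background depends on 1 library: without ARNT KO replicate 3, whose spread enters the shared fit, edgeR called 136 genes in place of 11 (0.966% of 14073) and again 0 of the 9. At an unadjusted p under 0.05 there were 3 of 9, Cry1 higher and Clock and Nr1d1 lower, where 11.9% of all genes reached that level. Groups of libraries did not overlap for 2 of 9, with Cry1 above (11.7% of all genes) and Clock below (9.46% of all genes). The median log2 change of the 9 was 0.14 against 0.0052 over all genes. DESeq2 and limma-voom also called 0 of the 9 in this comparison.

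ARNT KO against ARNT Flox gave 0 of 9 called by edgeR, DESeq2 or limma-voom, where edgeR called 0.0573% of all genes, 0.0215% higher and 0.0358% lower. Without ARNT KO replicate 3 edgeR called 193 genes in place of 8 (1.37% of all genes) and 0 of the 9. At an unadjusted p under 0.05 there were 0 of 9 (5.88% of all genes), and 1 of 9 without ARNT KO replicate 3, namely Per3 (16.4% of all genes in that fit). The groups of libraries overlapped for all 9 genes, where 5.94% of all genes lay wholly above and 4.9% wholly below. The median log2 change was 0.071, against 0.0090 over all genes.

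The effects of the knockouts were compared in 1 model, which asks whether a gene differs more in one knockout than in the other. None of the 9 passed with edgeR, DESeq2 or limma-voom (0.043% of all genes called by edgeR, 0.0143% higher and 0.0286% lower), and Clock was the 1 gene at an unadjusted p under 0.05 (9.51% of all genes). DESeq2 called 148 genes over the whole table for this difference, against 6 with edgeR. For Clock the ARNT KO effect exceeded the AHR KO effect by 0.39 ± 0.16 SE on the log2 scale (unadjusted p = 0.0316, adjusted p = 0.478). For Cry1 the difference was -0.52, with a 95% interval of -1.16 to 0.13, and for Nr1d1 it was 0.26, with an interval of -0.88 to 1.40.

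Between the control lines, ARNT Flox against AHR Flox gave 0 of 9 genes called by edgeR, DESeq2 or limma-voom (0.329% of all genes called by edgeR, 0.136% higher and 0.193% lower) and 0 of 9 at an unadjusted p under 0.05 (19.9% of all genes). Nr1d2 was the 1 gene with all 3 ARNT Flox livers below all 3 AHR Flox livers (17.7% of all genes), at a log2 change of -0.15 ± 0.14 SE. Same-numbered Flox libraries, which the labels do not pair, were also set side by side. ARNT Flox was below AHR Flox in all 3 such pairs for 6 of 9 genes (Arntl, Per2, Per3, Cry1, Nr1d1 and Nr1d2). It was above in all 3 for 0 of 9, where 27.5% of all genes were below and 27.4% above in all 3. Markers of other cells also differed between these lines: macrophage markers summed to 528 to 544 CPM in ARNT Flox, against 342 to 513 CPM in AHR Flox, and stellate cell markers to 330 to 407 CPM, against 239 to 318 CPM. Endothelial markers summed to 212 to 253 CPM in ARNT Flox, against 182 to 208 CPM in AHR Flox, and hepatocyte markers without Alb to 20979 to 23417 CPM, against 24122 to 26124 CPM. The part of these markers in the clock values was not tested. Without ARNT KO replicate 3 edgeR called 1532 genes between the lines in place of 46 (10.9% of all genes) and 0 of the 9. With all 12 libraries DESeq2 called 572 genes between the lines. ARNT KO against AHR KO also gave 0 of 9 called by edgeR, DESeq2 or limma-voom (0.702% of all genes called by edgeR, 0.315% higher and 0.387% lower). In that comparison DESeq2 called 1244 genes over the whole table, against 98 with edgeR. Leaving out 1 library at a time, edgeR called 17 to 913 genes there. Cry1 was the 1 gene at an unadjusted p under 0.05 (24.6% of all genes), at a log2 change of -0.59 ± 0.21 SE (unadjusted p = 0.0141, adjusted p = 0.123). All 3 ARNT KO livers were below all 3 AHR KO livers for Cry1 and Per2, 2 of 9 genes (13.2% of all genes). These comparisons share libraries with the knockout comparisons, so their values are set side by side only.

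Asked whether any of the 4 groups differed, edgeR called 0 of 9 (1.47% of all genes), with 1 at an unadjusted p under 0.05 (25.3% of all genes). That gene was Cry1 (unadjusted p = 0.00954, adjusted p = 0.109). DESeq2's likelihood ratio test called 1 of 9, Cry1 (adjusted p = 0.0158), but it called 2100 of the 13968 genes, against 205 with edgeR. The call of Cry1 is therefore not set apart from that background. Limma-voom called 0 of 9 and 140 genes over the whole table. Over all alternatives the adjusted p of Cry1 ran from 0.0158 to 0.268.

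**Figure D3:**
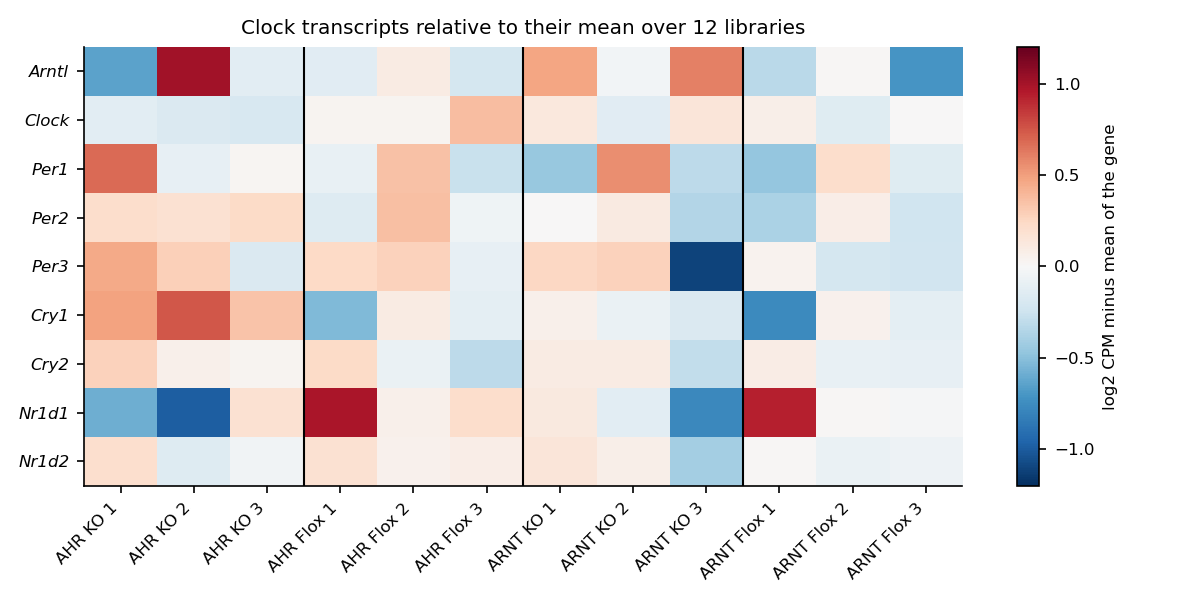
Log2 CPM of 9 clock genes (rows) minus the mean of each gene over 12 libraries, by library (columns, black lines between groups); red is above and blue below the mean. AHR Flox replicate 1 and ARNT Flox replicate 1 are highest in Nr1d1 (147 and 142 CPM) and lowest in Cry1 (10.05 and 8.51 CPM), and AHR KO replicate 2 is lowest in Nr1d1 (37.5 CPM) and highest in Cry1 (24.3 CPM).

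Relations between members were read from all 45 pairs over the 12 libraries, as correlations of log2 CPM with permutation tests adjusted over the 45 pairs. With no time of collection given, such correlations cannot set the phase of a gene. By Pearson's r, 4 pairs passed (Per2 with Cry1, Per3 with Cry2, Per3 with Nr1d2, and, inversely, Cry1 with Nr1d1) and 8 were at an unadjusted p under 0.05; by Spearman's rho 1 passed and 8 were at an unadjusted p under 0.05. With the group means taken out, 0 of 45 passed an exact permutation within groups and 4 were at an unadjusted p under 0.05. The 3 libraries of a group are too few for a value within 1 group. Over all genes tested, residuals of same-numbered Flox libraries correlated at 0.327, 0.153 and 0.101 for replicates 1, 2 and 3. Only replicate 1 lay above the range of the other comparisons, -0.127 to 0.164. The labels pair no samples, but the 12 libraries may not be fully independent points. Same-numbered Flox libraries were therefore also averaged, which leaves 9 points and was added after the data were seen. Then 0 of 45 pairs passed by Pearson's r and 7 were at an unadjusted p under 0.05 (smallest adjusted permutation p = 0.0675). Pairs with Npas2 rest on 1 to 10 reads and are not read.

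Per2 and Cry1, an inhibitor pair, were related at r = 0.75 (permutation p = 0.0041, adjusted 0.0479) and rho = 0.88 (permutation p = 0.00036, adjusted 0.0162). Without the 2 libraries farthest from the median of Per2, ARNT Flox replicate 1 and ARNT KO replicate 3, r was 0.66 and no longer passed (permutation p = 0.0367, adjusted 0.301). With the Flox pairs averaged r was 0.77 (permutation p = 0.0131, adjusted 0.134). With group means taken out r was 0.70 (exact permutation p = 0.0579, adjusted 0.367). The relation held in sign under all alternatives, while its adjusted p ran from 0.0367 to 0.367.

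Cry1 and Nr1d1 were inversely related, at r = -0.77 (permutation p = 0.00426, adjusted 0.0479) and rho = -0.48 (permutation p = 0.123, adjusted 0.453). Leaving out the 2 libraries farthest from the median of Cry1, AHR KO replicate 2 and ARNT Flox replicate 1, gave r = -0.50 (permutation p = 0.126, adjusted 0.506), so the relation rests in part on those libraries. Without ARNT KO replicate 3, where Cry1 held 12.8 CPM and Nr1d1 43.5 CPM, r was -0.91. With group means taken out r was -0.72 (exact permutation p = 0.0347, adjusted 0.367), and with the Flox pairs averaged it was -0.70 (permutation p = 0.0365, adjusted 0.274).

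Per3 moved with Nr1d2 at r = 0.84 (permutation p = 0.00331, adjusted 0.0479) and rho = 0.54 (permutation p = 0.0739, adjusted 0.323), and with Cry2 at r = 0.74 (permutation p = 0.00279, adjusted 0.0479) and rho = 0.70 (permutation p = 0.0136, adjusted 0.204). ARNT KO replicate 3 was the lowest library in Per3 and Nr1d2, and in Cry2 it lay above AHR Flox replicate 3 alone. Without it and ARNT Flox replicate 3, the 2 libraries farthest from the median of Per3, r was 0.50 for Nr1d2 (permutation p = 0.139, adjusted 0.506) and 0.64 for Cry2 (permutation p = 0.0435, adjusted 0.301). Neither passed without those libraries. With the Flox pairs averaged r was 0.85 for Nr1d2 (permutation p = 0.0149, adjusted 0.134) and 0.85 for Cry2 (permutation p = 0.0015, adjusted 0.0675). With group means taken out r was 0.85 for Nr1d2 (exact permutation p = 0.0702, adjusted 0.367) and 0.78 for Cry2 (exact permutation p = 0.00694, adjusted 0.278).

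Arntl showed no relation that passed. Its r was -0.47 with Nr1d1 (rho = -0.39; permutation p = 0.123 for r and 0.21 for rho, adjusted 0.336 and 0.526) and -0.50 with Nr1d2 (rho = -0.43; permutation p = 0.1 for r and 0.161 for rho, adjusted 0.336 and 0.453). Both rest on AHR KO replicate 2 and ARNT KO replicate 3, the 2 libraries farthest from the median of Arntl, without which r was 0.16 and 0.092 (permutation p = 0.668 and 0.799). With Clock, its partner, r was -0.025 (rho = -0.070; permutation p = 0.938 and 0.832, adjusted 0.941 and 0.874). Per1 and Per2 had r = 0.68 (rho = 0.76; permutation p = 0.0152 and 0.00631, adjusted 0.137 and 0.142) and kept r = 0.72 without AHR KO replicate 1 and ARNT KO replicate 2 (permutation p = 0.0185). Clock and Per1 ran inversely without passing, at r = -0.59 (permutation p = 0.0433, adjusted 0.253) and rho = -0.63 (permutation p = 0.0322, adjusted 0.237).

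**Figure D4:**
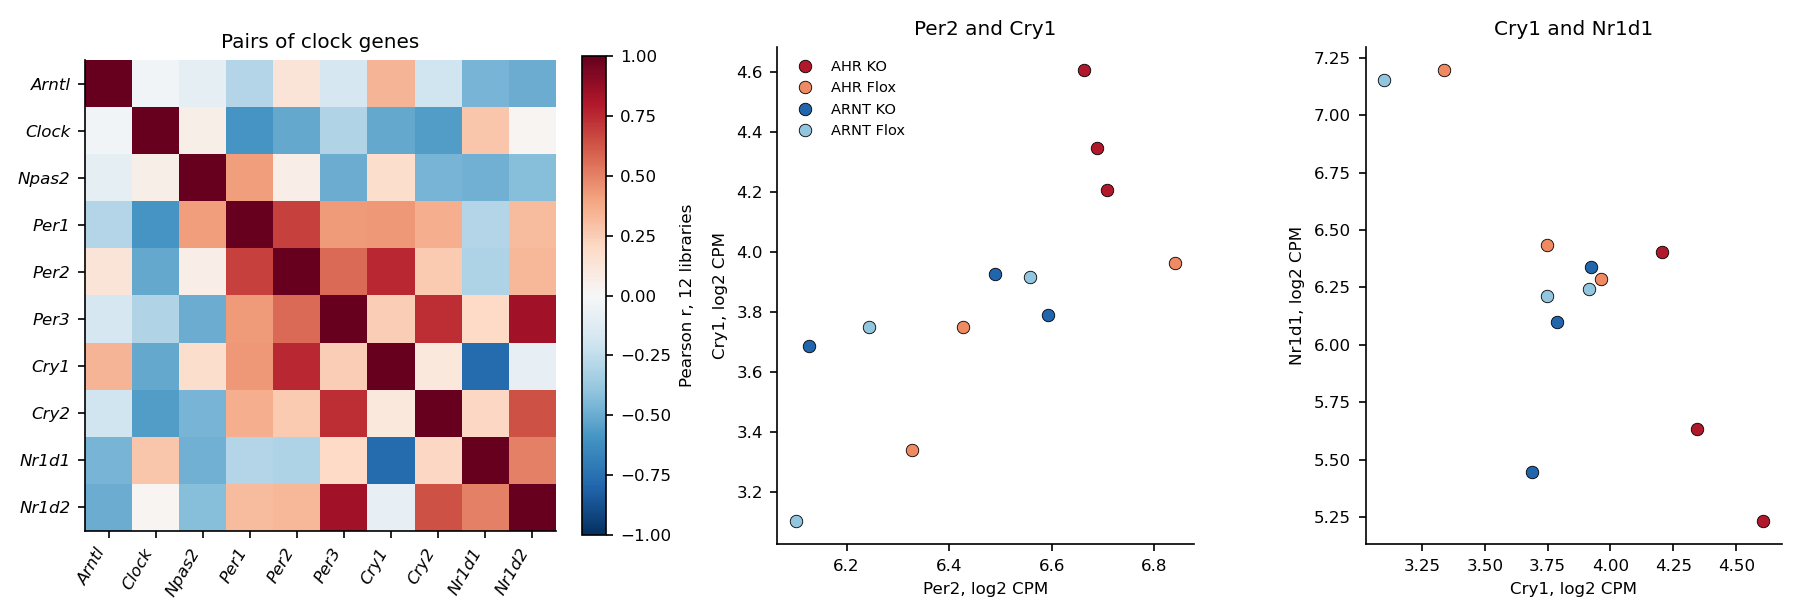
Left, Pearson r of log2 CPM over 12 libraries for each pair of clock genes (red positive, blue negative); middle and right, log2 CPM of each library for Per2 with Cry1 and for Cry1 with Nr1d1, coloured by group. Cry1 was higher where Per2 was higher (r = 0.75) and ran against Nr1d1 (r = -0.77), with AHR KO livers at the high Cry1 end of both.

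The spread between mice of a group was wide for part of the loop. The SD of log2 CPM within groups (8 degrees of freedom) was 0.52 for Nr1d1, 0.50 for Arntl, 0.45 for Per3 and 0.42 for Per1. Among genes within 1 log2 unit of the same mean level, Nr1d1 lay at the 97.7th percentile of that SD, Per1 at the 95.9th, Per3 at the 95.7th and Cry1, with an SD of 0.29, at the 86.1th. Arntl lay at the 76.4th percentile of its level, where low counts make all genes variable. Per2 (0.22), Cry2 (0.20), Nr1d2 (0.18) and Clock (0.14) were steadier, and Clock was at the 52.4th percentile of its level. Without ARNT KO replicate 3 the SD of Per3 was 0.22 and that of Nr1d2 was 0.11, while that of Nr1d1 was 0.51.

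**Figure D5:**
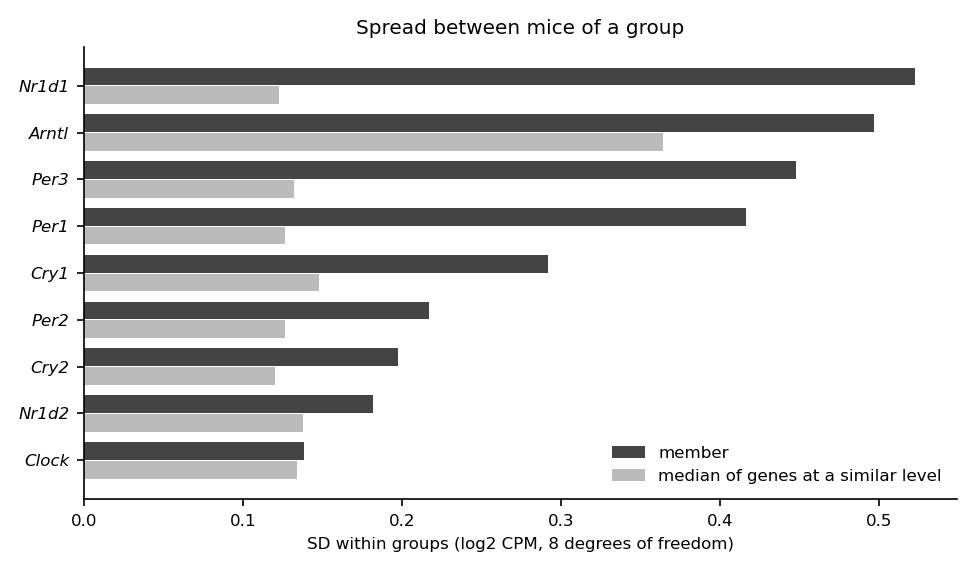
Pooled SD of log2 CPM between mice of the same group (horizontal axis, 8 degrees of freedom) for 9 clock genes (dark) and the median of genes within 1 log2 unit of the same mean level (light). Nr1d1, Per3 and Per1 (0.52, 0.45 and 0.42) exceed the median of similar genes by the widest margins, and Clock (0.14) is close to it.

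Genes most like the opposed ends of the loop were looked up among 12258 other genes with a mean of at least 1 CPM, by Pearson's r over the 12 libraries, as a description. The genes most like Arntl were Itga5 (r = 0.86), Ap1g2 (0.85), Lbr (0.83), Kdelc1 (0.83) and Fancg (0.82), and those most opposed were Slc7a2 (r = -0.82), Ankrd12 (-0.82), March2 (-0.81), Rgp1 (-0.81) and 1810014B01Rik (-0.80). The genes most like Nr1d1 were Lphn2 (r = 0.93), Tenc1 (0.93), Snx32 (0.92), Pank2 (0.89) and Fam160b1 (0.89), and those most opposed were Akr1c19 (r = -0.92), Ect2 (-0.91), 1810063B05Rik (-0.88), Vbp1 (-0.86) and Pcna (-0.85). No clock gene was among these 20. In the order of likeness to Nr1d1, Cry1 was 30th from the opposed end and Nr1d2 was 834th from the like end. In the order for Arntl, Nr1d2 was 428th and Nr1d1 548th from the opposed end.

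A list of 26 partners and modifiers of the clock (nuclear receptors, D-box factors, E-box repressors, kinases, ubiquitin ligase subunits and corepressors) had 25 tested members, with 1 below the filter. In AHR KO edgeR called 0 of 25 (0.0788% of all genes), and 5 of 25 were at an unadjusted p under 0.05 (11.9% of all genes), 3 higher and 2 lower. In ARNT KO it called 0 of 25 (0.0573% of all genes), and 2 of 25 were at that level (5.88% of all genes), 1 higher and 1 lower. The median log2 change of the list was -0.057 in AHR KO and 0.010 in ARNT KO, beside 0.0052 and 0.0090 over all genes. By the test of any difference Nfil3 and Bhlhe41 were among the 3 with the smallest p, and neither passed (adjusted p = 0.111 and 0.124).

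Nfil3, a D-box repressor that REV-ERB holds down, held 30.6, 24.9 and 21.8 CPM in AHR KO, against 15.3, 15.9 and 16.9 CPM in AHR Flox, with no overlap (log2 change 0.69 ± 0.21 SE, unadjusted p = 0.00691, adjusted p = 0.205). It held 23.6, 18.0 and 12.7 CPM in ARNT KO, against 11.7, 16.4 and 16.4 CPM in ARNT Flox. Bhlhe41, an E-box repressor, held 0.618, 0.421 and 1.29 CPM in AHR KO, against 2.86, 1.23 and 2.11 CPM in AHR Flox, at a log2 change of -1.41 ± 0.56 SE (adjusted p = 0.346). It held 1.09, 2.03 and 1.09 CPM in ARNT KO, against 5.92, 2.44 and 1.63 CPM in ARNT Flox (log2 change -1.26 ± 0.52 SE, adjusted p = 0.793). Without ARNT KO replicate 3 the test of any difference passed for 3 partners and 0 of the 9 core genes, in a fit where 13.1% of all genes passed. Among these partners were Nfil3 (adjusted p = 0.0218) and Wee1 (adjusted p = 0.0361), a clock-driven kinase. With all 12 libraries the log2 change of Wee1 was -0.11 ± 0.15 SE in AHR KO and -0.13 ± 0.15 SE in ARNT KO. Between ARNT Flox and AHR Flox it was 0.27 ± 0.15 SE.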

How the data were processed

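Poly-A RNA of 12 livers was sequenced, 1 library per mouse. Values in the table that the authors deposited are raw counts, 1 row per gene symbol. Tools listed in the submitters' processing notes are STAR (2.5.4b, 2.6.0c), bcl2fastq 2.20, DESeq2 1.20.0 and R 3.5.1, on mm10; for the counting tool, strand setting and annotation the sources used here give nothing. The 10 members and all gene lists were chosen with earlier results of these data known. Named are all 10 members, Ahr and Arnt, the 5 genes most and least like Arntl and Nr1d1, and the 3 partners of smallest p, of which 1 is not reported here; Wee1 was named after its values were seen.

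Counts of all 12 libraries were fitted in 1 edgeR 4.0.16 model (R 4.3.3) with a mean per group, after filterByExpr (minimum count 10, minimum total 15), which kept 13968 genes, and TMM scaling. The quasi-likelihood F test, two-sided, was Benjamini-Hochberg adjusted over all genes and called at 0.05; intervals use its degrees of freedom. CPM uses the same scaling, and log2 CPM a prior count of 2. Correlations used 100000 permutations, two-sided. The fit was tested on simulated data. No pair of libraries within a group was a duplicate (chi-square per degree of freedom of at least 16.6). Pairs across groups were not checked in this way. Alternatives were DESeq2 1.42.0, limma-voom (limma 3.58.1) with and without quality weights, other scalings and filters, only the groups of a contrast, a replicate block and leaving out each library. Labels pair no samples. Residuals of same-numbered libraries correlated at 0.327, 0.153 and 0.101 between the Flox groups, and at -0.127 to 0.164 in the other comparisons. Only the Flox value of replicate 1 lay above that range. Same-numbered Flox libraries were set side by side or averaged without a pairing in the labels, and the main fit does not pair them. Floors and Poisson intervals cover counting error only. Levels per kilobase and positions use GENCODE M21.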

Additional observations from a re-analysis of the deposited data

How the results depend on the processing

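In each of the 5 contrasts edgeR, DESeq2 and limma-voom called 0 of the clock genes they tested under every alternative run, and leaving out any 1 library gave 0 as well. The exception among all tests was the test of any difference, where DESeq2 called 1 (Cry1) and 2100 genes over the whole table. The genes tested were not the same 9 throughout: with no filter Npas2 was tested too. In AHR KO, Arntl had an adjusted p in 22 settings, against 23 for Clock. With the replicate block, edgeR also called 0 of 9 in each comparison, and genes called over the whole table numbered 23 against 46 between the Flox groups. Pairs of members that passed numbered 4, and 0 with upper quartile scaling, with group means taken out, with same-numbered Flox libraries averaged (added after the data were seen) or without the 2 libraries farthest from the median; leaving out 1 library gave 0 to 3. Over the whole table DESeq2 called 359 genes in AHR KO and 56 in ARNT KO, against 11 and 8 with edgeR, and limma-voom with quality weights gave 82 and 422. Fitted on its own groups alone, ARNT Flox against AHR Flox gave 1615 genes. The fit on the groups of a contrast alone was not run for the difference between effects and for any difference, which need all 4 groups.

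Log2 changes of these genes turned sign under these alternatives. In ARNT KO, Per3 was -0.049 with limma-voom and -0.032 with the replicate block, Clock -0.00091 with quality weights, and Nr1d2 3.48e-05 with DESeq2 size factors and 0.12 with quality weights. For the ARNT KO effect minus the AHR KO effect, Per3 was 0.0031 with TMM without the 50 most abundant genes, and quality weights gave 0.088 for Per1, 0.027 for Per2 and 0.28 for Per3. Quality weights gave 0.032 for Cry1 and -0.015 for Cry2 between ARNT Flox and AHR Flox, and 0.063 for Per1 and 0.035 for Nr1d2 between ARNT KO and AHR KO. Leaving out 1 library turned the sign of others, with these ranges. In AHR KO they were -0.066 to 0.41 for Per1, -0.079 to 0.22 for Per3 and -0.32 to 0.64 for Arntl. In ARNT KO they were -0.14 to 0.39 for Per3, -0.053 to 0.13 for Cry2, -0.28 to 0.30 for Per1, -0.11 to 0.15 for Nr1d2 and -0.033 to 0.35 for Cry1. For the difference between effects they were -0.49 to 0.18 for Per1, -0.20 to 0.33 for Per3, -0.19 to 0.12 for Per2, -0.062 to 0.67 for Nr1d1 and -0.0033 to 0.25 for Nr1d2. ARNT KO against AHR KO gave -0.17 to 0.78 for Arntl, -0.62 to 0.046 for Per1, -0.16 to 0.10 for Nr1d2, -0.055 to 0.57 for Nr1d1 and -0.48 to 0.054 for Per3. ARNT Flox against AHR Flox gave -0.47 to 0.24 for Nr1d1, -0.32 to 0.066 for Per1, -0.26 to 0.13 for Cry1 and -0.12 to 0.16 for Cry2. The cause was not tested.

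With 3 mice a group the precision was set by the spread between mice: the 95% interval of the log2 change in AHR KO ran from -1.67 to -0.050 for Nr1d1 and from -0.43 to 0.87 for Per1. Depth limits Arntl, with 17 to 77 reads, and Npas2, with 1 to 10.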

Other observations

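Ratios of reads within a library do not depend on library scaling. After the data were seen, 5 ratios were computed in both knockout comparisons, 10 tests in all, and 3 of these reached the smallest exact p that 3 against 3 allows, 0.1. The smallest p adjusted over the 10 exact permutation tests by Benjamini-Hochberg was 0.333, so no ratio passed. Reads of Nr1d1 per read of Arntl, the opposed ends of the loop, were 66.3, 15.04 and 77.1 in AHR KO, against 135, 60.1 and 83.6 in AHR Flox (exact two-sided permutation p = 0.4). They were 47.3, 58.3 and 23.3 in ARNT KO, against 149, 61.9 and 104 in ARNT Flox, so all 3 knockout livers were below all 3 controls (exact two-sided permutation p = 0.1). Reads of Per3 per read of Cry1 were 8.16, 6.05 and 5.82 in AHR KO, against 14.1, 9.41 and 8.41 in AHR Flox, again without overlap (exact two-sided permutation p = 0.1). They were 9.48, 10.6 and 4.34 in ARNT KO, against 14.6, 6.92 and 7.67 in ARNT Flox (exact two-sided permutation p = 0.6). Nr1d1 per Nr1d2 gave an exact two-sided permutation p of 0.3 in AHR KO and 0.1 in ARNT KO, Per1 per Nr1d1 gave 0.2 and 0.4, and Per1 per Per3 gave 0.6 and 0.9.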
